A study of Mus musculus with 6 samples.

Results

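The genes described here, 9 of the 21368 mouse genes that the array probes could be named for, are *Gng2*, *Klhl22*, *Rcor2*, *Sccpdh*, *Slc4a7*, *Snn*, *Tmcc2*, *Tmeff1* and *Gm1673*. They are the members of the study's list of 25 genes positively regulated by SOX4 and SOX11 that were set apart here from its genes of the cytoskeleton, the matrix, Wnt and ERK signalling and the mesenchyme. *Klhl22* is on the border of this choice, since the study marks it among its genes of the cytoskeleton and motility. The study's list required higher expression in embryonic than in postnatal epidermis, and higher expression at the wound edge. It also required lower expression in embryonic epidermis lacking both factors. The study put a gene on that list partly because its expression was lower in keratinocytes lacking both factors on these same arrays. The values of that comparison therefore chose the genes, and they are given as a description with no test. The loss of *Sox4* alone and of *Sox11* alone, the partners of the 9 genes and their neighbours on the chromosome were compared as well. The study had turned to genes changed only when both factors were lost, so the lack of a change in the single knockouts may itself have been a condition of the list.

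The cells were keratinocytes, which build the epidermis, cultured from the skin of newborn mice. The labels give the strain 129SvEx:C57BL/6 for every channel, whereas the methods give that mix for the floxed founders, which were crossed to Cre mice of FVB/N. They had been expanded on J2 fibroblast feeder cells and then carried off the feeders for several passages. Each array compared wild-type RNA in one dye with RNA of Sox4cKO cells (conditional knockout of *Sox4*, Sox4 cKO below), Sox11cKO cells (Sox11 cKO) or Sox4/11 dcKO cells (double conditional knockout, dcKO) in the other dye, with 2 biological replicates of each of the 3 genotypes and 6 arrays in all. The study's methods describe floxed (fl/fl) alleles recombined by *Krt14-Cre*, a Cre that is driven by the keratin 14 promoter of basal epidermal cells. The founder floxed mice also carried a *Sox12* null allele. The genotypes given for the single and double knockouts do not list it, and the study names cells lacking all of *Sox4*, *Sox11* and *Sox12* separately. The labels do not say whether animals were pooled or whether the wild-type RNA of the arrays came from separate cultures, so the errors measure the spread between these arrays, which may be technical.

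SOX4 and SOX11 are SoxC transcription factors, which bind short AT-rich DNA motifs through an HMG box and are active in embryonic and progenitor cells. In the epidermis the study found both genes highly expressed in the embryo, with *Sox11* undetectable and *Sox4* reduced soon after birth. It showed the return at wounds for SOX11 and had no working antibody to stain SOX4. Each of the 9 genes has a role outside that of the best known SoxC targets. *Gng2* encodes a G protein gamma subunit, which pairs with a beta subunit to carry signals from receptors. *Tmeff1* encodes a membrane protein with follistatin-like domains that inhibits Nodal signalling, and *Gm1673* is the mouse counterpart of the gene for NICOL, a small secreted protein. *Klhl22* encodes a substrate adaptor of the CUL3 ubiquitin ligase, and *Rcor2* a corepressor that joins the histone demethylase LSD1 to histone deacetylases. *Slc4a7* encodes a sodium bicarbonate cotransporter that removes acid from cells, and *Sccpdh* a protein related to saccharopine dehydrogenase. *Snn* encodes stannin, a small membrane protein known from the toxicity of organotin compounds, and *Tmcc2* encodes a coiled-coil protein of the endoplasmic reticulum.

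The start regions of 4 of the genes are shown, *Gng2*, *Klhl22* and *Rcor2* because their dcKO ratios were the lowest of the 9, and *Tmeff1* because it was the only target whose window held a SOX motif that was searched. Each window runs from 250 bases before to 50 bases after a transcription start in RefSeq (GRCm38.p6) and is written 5′ to 3′ on the strand of the gene. Capitals mark a match to the SOX motif AACAAAG, to its variant AACAATG or to the AP-1 motif TGANTCA, all of which were searched on both strands. The windows are chr14:19976644-19976943 on the minus strand for *Gng2*, chr16:17759371-17759670 on the plus strand for *Klhl22*, chr19:7267144-7267443 on the plus strand for *Rcor2* and chr4:48584924-48585223 on the plus strand for *Tmeff1*.
Gng2: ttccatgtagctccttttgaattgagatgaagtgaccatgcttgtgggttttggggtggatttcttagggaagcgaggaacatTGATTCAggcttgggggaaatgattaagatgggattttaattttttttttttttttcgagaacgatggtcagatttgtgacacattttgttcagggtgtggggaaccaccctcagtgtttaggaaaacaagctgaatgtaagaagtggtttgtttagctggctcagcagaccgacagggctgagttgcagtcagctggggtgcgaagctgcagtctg
Klhl22: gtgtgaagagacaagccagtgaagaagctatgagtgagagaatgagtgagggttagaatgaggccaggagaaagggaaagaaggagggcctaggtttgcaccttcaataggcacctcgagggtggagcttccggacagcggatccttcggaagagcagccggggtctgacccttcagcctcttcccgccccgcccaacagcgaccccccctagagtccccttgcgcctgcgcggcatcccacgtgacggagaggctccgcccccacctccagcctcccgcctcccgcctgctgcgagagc
Rcor2: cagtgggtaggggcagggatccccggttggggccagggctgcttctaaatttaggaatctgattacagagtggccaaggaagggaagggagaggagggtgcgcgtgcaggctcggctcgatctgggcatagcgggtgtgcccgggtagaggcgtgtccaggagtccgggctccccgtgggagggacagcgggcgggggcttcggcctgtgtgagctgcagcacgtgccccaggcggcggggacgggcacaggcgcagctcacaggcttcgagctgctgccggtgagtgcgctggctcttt
Tmeff1: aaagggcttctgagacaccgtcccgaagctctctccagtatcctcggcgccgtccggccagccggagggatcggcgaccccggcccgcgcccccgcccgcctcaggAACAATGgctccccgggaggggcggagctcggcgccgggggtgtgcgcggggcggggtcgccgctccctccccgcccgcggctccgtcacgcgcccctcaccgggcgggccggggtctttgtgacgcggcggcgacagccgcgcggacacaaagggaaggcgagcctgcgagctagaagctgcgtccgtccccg

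All 9 targets had such a window, and 12 windows were found because *Klhl22* has 2 and *Tmcc2* has 3. Only 2 of the 12 held a match. The *Gng2* window held TGATTCA on its written strand, 167 bases before the start, and 7.81% of all 32851 windows held TGANTCA. The *Tmeff1* window held AACAATG 144 bases before the start, and 9.36% of all windows held at least 1 of the SOX motifs. A match describes the letters of the window and not a bound site. The study's list also required binding by SOX11 and/or SOX4, measured by chromatin immunoprecipitation in keratinocytes. The study describes these bound sites as lying preferentially in enhancers, so a window without a match says nothing about binding elsewhere. The windows differed in CpG content: *Tmeff1* had 45 CpG pairs and *Sccpdh* had 43, whereas *Gng2* had 5 and *Slc4a7* had 2, against a median of 7 over all windows. The genes with the lowest dcKO ratios had 5 (*Gng2*) and 17 (*Klhl22*). Not all windows lie at the outer 5′ end of their gene. The *Slc4a7* start is at 14718784, inside a gene that begins at 14703011. The *Gng2* start is at 19976693, and the 5′ end of that gene is at 19977825. The CpG counts are therefore not a comparison of the outermost promoters.

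Values are log2 ratios of knockout over wild type within an array, so a negative value means lower expression in the knockout. Levels of single channels are log2 intensities made comparable between arrays, and levels of different probes are not compared, except that the probes of a gene are named brighter and dimmer. For a gene with several probes the brightest one is given unless another is named. The targeted genes bore out the genotype labels. *Sox4* lay at -2.49 and -2.54 on the Sox4 cKO arrays and at -2.23 and -2.81 on the dcKO arrays, against 0.06 and -0.35 in Sox11 cKO. *Sox11* lay at -3.31 and -2.65 in Sox11 cKO and at -3.07 and -3.79 in dcKO, while its ratios in Sox4 cKO had opposite signs on the 2 arrays, 0.82 and -0.97. Between 35.2% and 42.9% of the 55681 probes were well above background in a knockout channel and between 37.3% and 45.1% in a wild-type channel. Of the 9 targets, 8 were well above background in at least 1 channel of every array, and *Tmcc2* was not. In bulk RNA, fewer cells that express a gene and less of its RNA per cell cannot be told apart.

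All 9 targets were lower in dcKO than in wild-type cells on both arrays, as the choice of genes requires, and 28.2% of all probes were. Their median log2 fold change was -1.29, and it was -2.60 over the 16 other genes of the study's list. The fold changes ran from -0.60 for *Tmcc2* to -3.59 for *Klhl22*. The study's methods set the size of a change at a log2 fold change above 1.5, while some of its legends give a fold change above 1.5 with no log2. On the log2 reading *Gng2*, *Klhl22* and *Rcor2* were past that size, as were 0.541% of all probes on the lower side, with *Rcor2* just inside at -1.62 and *Snn* just outside at -1.35. On the other reading all 9 were past it, the smallest being *Tmcc2* at 1.52-fold or more by the mean of its 2 arrays. With a background offset of 50 *Tmcc2* was at -0.31 and so short of it, and with the scanner's processed signals it was at -2.13. On the single-knockout arrays the 9 genes went no common way: 2 and 6 of them were below 0 on the 2 Sox4 cKO arrays and 6 and 5 on the 2 Sox11 cKO arrays. Lower on both arrays were 1 gene in Sox4 cKO (*Snn*), beside 24.6% of all probes, and 3 in Sox11 cKO (*Rcor2*, *Sccpdh* and *Tmeff1*), beside 22.2%. Higher on both were 2 in Sox4 cKO (*Gng2* and *Rcor2*), beside 24.2%, and 1 in Sox11 cKO (*Gng2*), beside 22.2%.

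**Figure D1:**
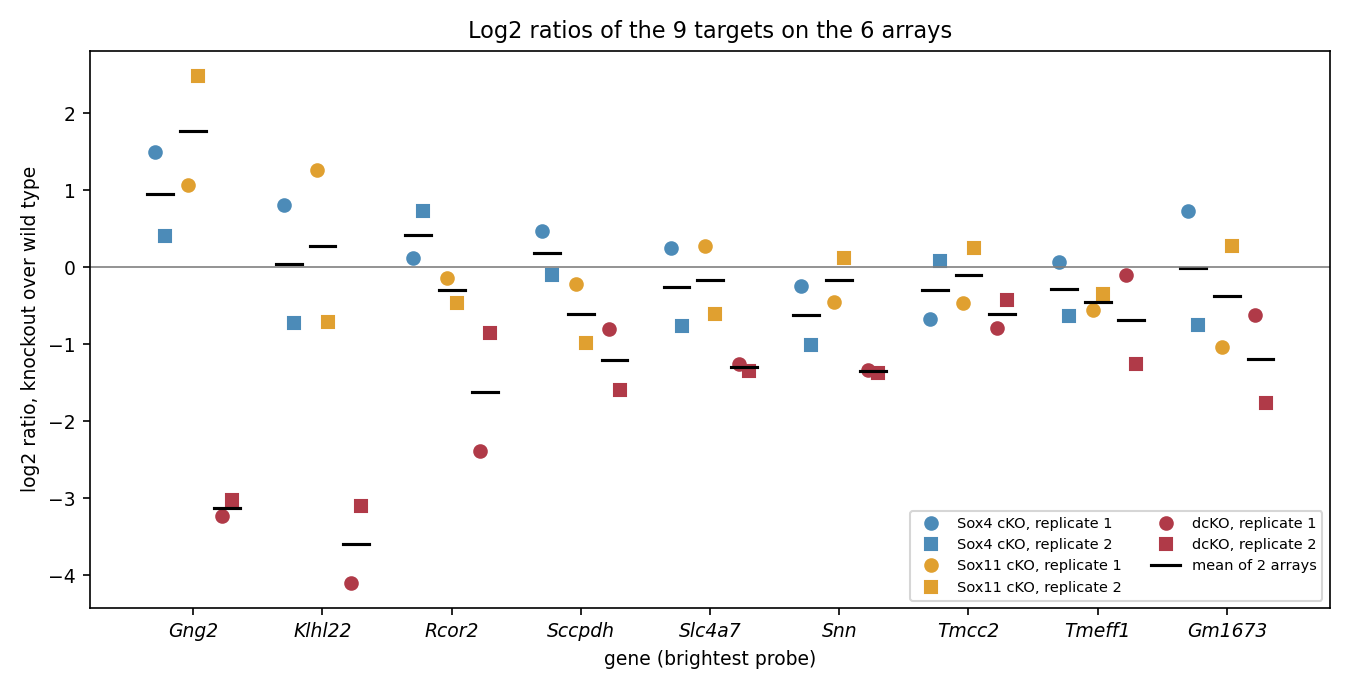
Log2 ratio of knockout over wild type (y axis) for the brightest probe of each of the 9 targets (x axis), with 1 point per array, circles for replicate 1, squares for replicate 2 and a bar at the mean of 2 arrays. All 18 dcKO points lie below 0, from -4.09 to -0.10, while the single-knockout points lie on both sides of 0.

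*Gng2* was the signalling gene with the largest difference. Its log2 ratios were -3.23 and -3.02 on the dcKO arrays, a level 8.72-fold lower than in wild-type cells (log2 fold change -3.12 ± 0.14, SD, n = 2). On the single-knockout arrays it lay the other way, at 1.505 and 0.412 in Sox4 cKO and at 1.07 and 2.49 in Sox11 cKO. The dcKO and single-knockout ratios thus stood on opposite sides of 0 on every array. The channels of the arrays can be looked at one by one. The log2 level of *Gng2* in dcKO cells was 6.94 and 6.63, and in the wild-type channels of those same arrays it was 10.17 and 9.65. The other 4 wild-type channels lay between 6.64 and 8.05, so that the wild-type level beside dcKO was 2.55 log2 units above the mean of the others and the dcKO level differed from that mean by -0.57. The *Gng2* level in single-knockout channels ran from 7.77 to 10.53. The dcKO channels were thus within or near the range of the wild-type channels on the other arrays, and the wild-type channels beside them were above it.

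*Tmeff1*, the Nodal inhibitor, had 2 probes. The brighter lay at -0.10 and -1.26 on the dcKO arrays (-0.68 ± 0.82, SD, n = 2), a spread between arrays larger than the mean itself. The dimmer probe lay at -0.60 and -0.54 and so had the same direction on both arrays with little spread. The log2 level of the brighter probe in dcKO was 9.76 and 8.95, below all 10 other channels, which ran from 9.86 to 11.23. The wild-type channels of the dcKO arrays, at 9.86 and 10.21, were in turn the lowest of the 6 wild-type channels. The window shown for this gene is the one with the AACAATG match.

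*Gm1673*, the NICOL gene, lay at -0.62 and -1.76 in dcKO (-1.19 ± 0.81, SD, n = 2). Its ratios in Sox4 cKO were 0.74 and -0.75, and in Sox11 cKO they were -1.03 and 0.28, so that the 2 arrays of each single genotype disagreed in sign. On replicate 2 of Sox11 cKO both channels of *Gm1673* were low, at 7.81 in the knockout and 7.53 in the wild type, whereas the other 5 wild-type channels lay between 9.07 and 10.09. The 2 dcKO channels, at 9.01 and 8.05, were within the range of the single-knockout channels, from 7.81 to 9.81.

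*Klhl22*, the CUL3 adaptor, was the lowest of the 9 in dcKO, at -4.09 and -3.10 (-3.59 ± 0.70, SD, n = 2). With the background offset used here this is 12.1-fold lower than wild type. Its log2 level in dcKO was 6.17 and 5.04, of which the second was not well above background, and both were below all 10 other channels of the series. Those other channels were widely spread: the 6 wild-type levels of *Klhl22* ran from 7.70 to 10.73, a range of 3.02 log2 units. A second, dimmer probe of *Klhl22* had much smaller dcKO ratios, -1.64 and -0.23 (-0.93 ± 0.99, SD, n = 2), so the probes of this gene agreed on direction and not on size. The size moved with the processing too. The dcKO log2 fold change of *Klhl22* was -2.78 with an offset of 50 and -5.29 with the scanner's processed signals. With the mean over its probes it was -2.26. In both single genotypes *Klhl22* was higher on replicate 1 (0.81 in Sox4 cKO and 1.27 in Sox11 cKO) and lower on replicate 2 (-0.72 and -0.70). The dimmer probe did the same, at 0.40 and -0.47 in Sox4 cKO and at 0.75 and -0.55 in Sox11 cKO. The knockout RNA carried Cy5 on every replicate 1 and Cy3 on every replicate 2, so replicate number and dye cannot be told apart.

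*Rcor2*, the LSD1 corepressor, lay at -2.39 and -0.86 in dcKO (-1.62 ± 1.08, SD, n = 2), 3.08-fold lower than wild type. The 2 dcKO levels of *Rcor2* were close, 8.58 and 8.78, and within the range of the single-knockout channels, from 8.18 to 9.41. The wild-type channels beside them were 10.97 and 9.63, both above the other 4 wild-type channels, which ran from 8.23 to 9.54. The difference between the 2 dcKO ratios thus followed the wild-type channel. In Sox4 cKO both ratios were above 0, at 0.12 and 0.73, and in Sox11 cKO both were below it, at -0.13 and -0.46.

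*Slc4a7*, the bicarbonate cotransporter, had 2 probes. The brighter lay at -1.25 and -1.34 (-1.29 ± 0.07, SD, n = 2), 2.45-fold lower than wild type. Its dcKO levels, 7.89 and 8.04, were below all 10 other channels, which ran from 8.89 to 10.16. The wild-type levels of *Slc4a7* spanned 0.74 log2 units over the 6 arrays, the least of the 9 targets. The dimmer probe lay at -0.98 and -0.85 and was not well above background in dcKO, so that *Slc4a7* by this probe was at least 1.89-fold lower. In dcKO, then, both probes and both arrays of *Slc4a7* agreed on direction. In the single knockouts the brighter probe was higher on replicate 1, at 0.25 and 0.28, and lower on replicate 2, at -0.76 and -0.60. The dimmer probe did not follow it there, with 0.32 and 0.09 in Sox4 cKO and 0.02 and 0.09 in Sox11 cKO, all above 0.

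*Sccpdh*, the saccharopine dehydrogenase relative, lay at -0.81 and -1.59 in dcKO (-1.20 ± 0.56, SD, n = 2), 2.30-fold lower than wild type. Its ratios were also below 0 on both Sox11 cKO arrays, at -0.22 and -0.99, and they were 0.47 and -0.10 in Sox4 cKO. Replicate 2 of Sox11 cKO was thus lower than replicate 1 of dcKO. The dcKO levels were 9.56 and 8.53 and the wild-type levels of the same arrays 10.36 and 10.12.

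*Snn*, which encodes stannin, lay at -1.33 and -1.38 in dcKO (-1.35 ± 0.04, SD, n = 2), the smallest spread between dcKO arrays among the 9. It was 2.55-fold lower than wild type. In Sox4 cKO *Snn* was also below 0 on both arrays, at -0.24 and -1.002, and in Sox11 cKO it lay at -0.44 and 0.12. Of its dcKO levels, 8.72 was within the range of the single-knockout channels, from 8.44 to 8.93, and 8.10 was below it, while the wild-type levels beside dcKO were 10.05 and 9.47.

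*Tmcc2*, which encodes the coiled-coil membrane protein, was not well above background in any of the 6 knockout channels, and among wild-type channels it was so on both dcKO arrays and on 1 Sox4 cKO array. It lay at -0.78 and -0.42 in dcKO, so that by the mean of the 2 arrays *Tmcc2* was at least 1.52-fold lower there. This bound holds for the background offset used, and with an offset of 50 the log2 fold change was -0.31. Its ratios in the single knockouts were -0.67 and 0.09 in Sox4 cKO and -0.46 and 0.25 in Sox11 cKO, where no fold can be given for Sox11 cKO because both channels were dim. Its wild-type levels on the dcKO arrays were 5.78 and 5.57, above the other 4, which ran from 5.02 to 5.49.

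**Figure D2:**
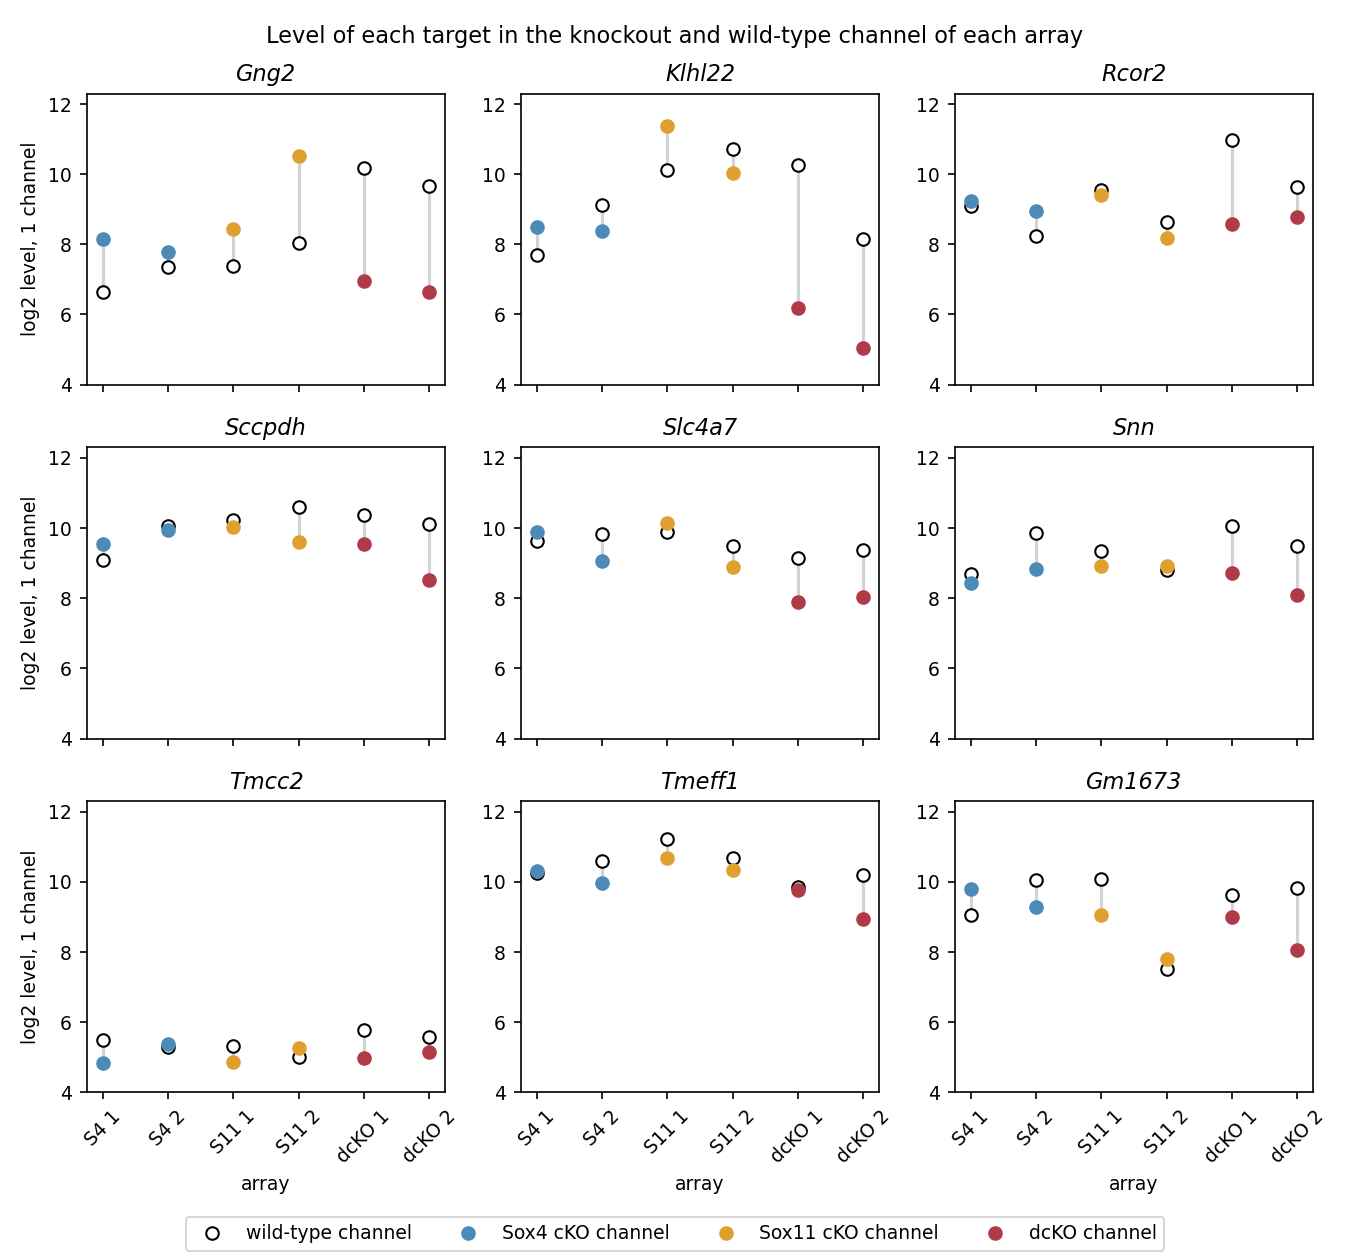
Log2 level (y axis) in the wild-type channel (open circles) and the knockout channel (filled circles) of each of the 6 arrays (x axis, S4 for Sox4 cKO and S11 for Sox11 cKO), with a panel for each target and a grey line joining the channels of an array. In *Klhl22*, *Slc4a7* and *Tmeff1* the dcKO circles lie below all 10 other channels, and in *Gng2* and *Rcor2* the open circles beside dcKO lie above the other 4 open circles.

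Different patterns of channels thus stood behind similar ratios. Both dcKO channels were below all 10 other channels for 3 of the 9 genes, *Klhl22*, *Slc4a7* and *Tmeff1*, and this held for 2.57% of all probes. Both wild-type channels of the dcKO arrays were above the other 4 wild-type channels for another 3, *Gng2*, *Rcor2* and *Tmcc2*, and this held for 8.09% of all probes. Both dcKO ratios were below all 4 single-knockout ratios for 5 of the 9, *Gng2*, *Klhl22*, *Rcor2*, *Slc4a7* and *Snn*, beside 9.21% of all probes. The dcKO ratios enter all of these counts and also chose the genes, so nothing is read from the counts beyond which genes they hold.

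The loss of a single factor was examined next. A gene changed in a single knockout may have been kept off the study's list, so a count of 0 here may follow from the choice of genes and does not show that one factor is enough. None of the 9 was called in Sox4 cKO (limma, adjusted p below 0.05 and absolute log2 fold change above 1.5), beside 0.140% of all probes. At an unadjusted p below 0.05 there were 2, *Gng2* higher (0.96, 95% interval 0.12 to 1.79, limma adjusted p = 0.606) and *Snn* lower (-0.62, 95% interval -1.14 to -0.10, limma adjusted p = 0.592), beside 7.40% of all probes. None of the 9 was called in Sox11 cKO, beside 0.0862% of all probes. There too 2 had an unadjusted p below 0.05, *Gng2* higher (1.78, 95% interval 0.94 to 2.61, limma adjusted p = 0.196) and *Sccpdh* lower (-0.60, 95% interval -0.94 to -0.26, limma adjusted p = 0.303), beside 6.85% of all probes. These values rested on single arrays in part. In Sox4 cKO *Gng2* was 0.0070 without replicate 1 and 1.91 without replicate 2, and *Snn* was -1.13 and -0.11. In Sox11 cKO *Gng2* was 2.71 and 0.84, while *Sccpdh* was -0.65 and -0.56. The count of 0 called in Sox11 cKO did not hold when either of its arrays was left out. Calls over all probes rose in those fits as well. *Gng2* lay at 2.71 without replicate 1 of Sox11 cKO and *Gm1673* at -1.69 without replicate 2. In each case the lone array was assumed to vary like the other genotypes, so no count is read from these fits.

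The intervals bound the single-knockout changes that these arrays leave possible. For *Slc4a7* the 95% interval was -0.71 to 0.19 in Sox4 cKO and -0.61 to 0.29 in Sox11 cKO, both above its dcKO value of -1.29. For *Klhl22* it was -0.99 to 1.07 in Sox4 cKO and -0.75 to 1.31 in Sox11 cKO, both above -3.59. For *Rcor2* it was -0.23 to 1.08 and -0.95 to 0.36, both above -1.62. For *Gm1673* it was -0.996 to 0.981 and -1.36 to 0.61, and the latter held its dcKO value of -1.19. For *Tmeff1* it was -0.82 to 0.26 and -0.98 to 0.09, and both held its dcKO value of -0.68. A fold change of the size in dcKO thus lay within the single-knockout interval for *Gm1673* in Sox11 cKO and for *Tmeff1* in both genotypes. The dcKO values chose the genes and have no interval here, so these positions are a description and not a test. On replicate 2 of dcKO *Rcor2* lay at -0.86, inside its Sox11 cKO interval, and on replicate 1 at -2.39, below it. *Sccpdh*, with an interval of -0.94 to -0.26 in Sox11 cKO, likewise had dcKO ratios of -0.81 and -1.59. The dimmer *Klhl22* probe had a dcKO value of -0.93. *Tmcc2* was left out of this comparison, since its knockout channels give bounds only.

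**Figure D3:**
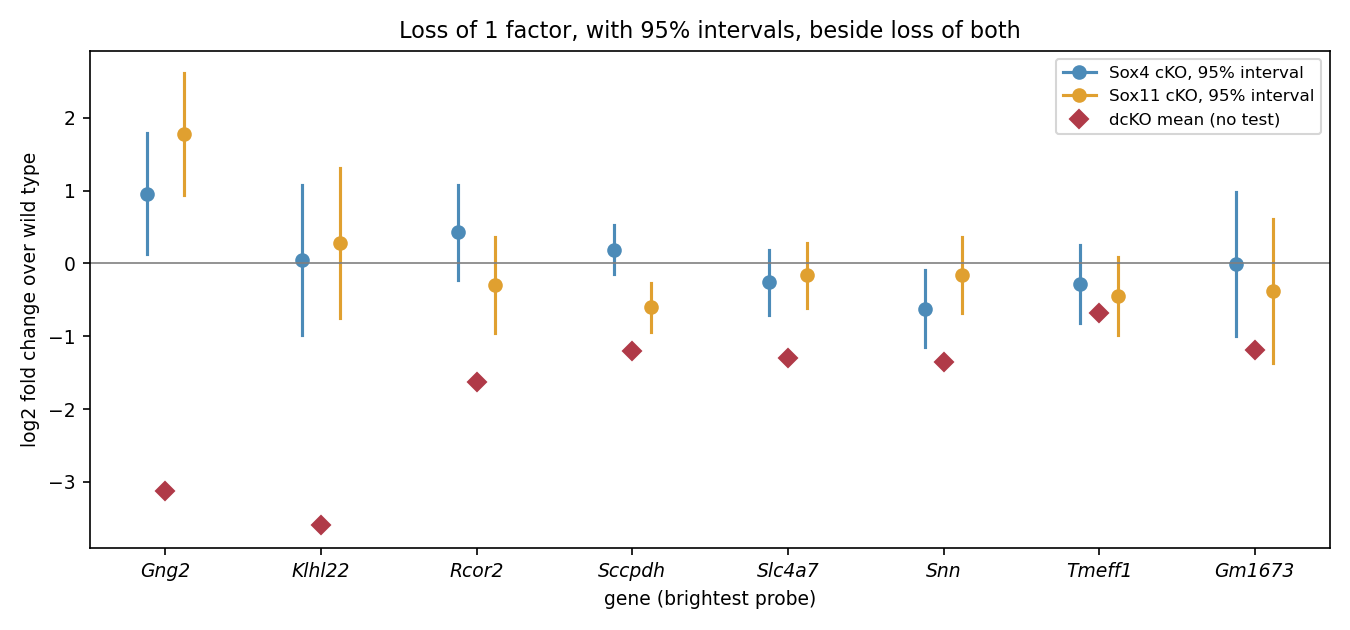
Log2 fold change over wild type (y axis) of 8 targets (x axis, without *Tmcc2*) in Sox4 cKO and Sox11 cKO, each a point with its 95% interval from the limma model over 6 arrays, with the dcKO mean of 2 arrays as a diamond that has no interval. The dcKO diamonds lie within an interval for *Tmeff1* and *Gm1673* and below both intervals for *Klhl22*, *Gng2*, *Rcor2*, *Slc4a7*, *Sccpdh* and *Snn*. The dcKO values chose the genes, so their distance from the intervals is a description and no test.

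The single knockouts were also compared with each other. None of the 9 was called between Sox4 cKO and Sox11 cKO, beside 0.0108% of all probes. At an unadjusted p below 0.05 there was 1, *Sccpdh*, whose fold change in Sox4 cKO was 0.79 above that in Sox11 cKO (95% interval 0.31 to 1.27, limma adjusted p = 0.460), beside 6.35% of all probes. The difference for *Rcor2*, whose ratios had opposite signs in the 2 genotypes, was 0.72 (95% interval -0.21 to 1.65, limma adjusted p = 0.860). That for *Gng2* was -0.82 (95% interval -1.996 to 0.361, limma adjusted p = 0.885).

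The partners and relatives of the 9 genes were then examined in dcKO cells, 67 genes in 8 lists (stannin has none). None was called, beside 0.756% of all probes. By adjusted p alone 2 of the 67 passed, both lower, and 65 did not, beside 2.06% of all probes, and 14 had an unadjusted p below 0.05, beside 13.0%. The median log2 fold change of the 67 was -0.13, with 32 lower and 11 higher on both arrays, and over all probes the median was close to 0 with 28.2% lower and 27.3% higher on both. Over the 20681 probes well above background in at least 1 channel of every array the median was -0.03, with 35.5% lower and 30.9% higher on both. Of the 67, 46 were well above background in at least 1 channel of both dcKO arrays. In the single knockouts none of the 67 was called either. By adjusted p alone 1 passed in Sox4 cKO, higher, beside 0.176% of all probes, and 0 in Sox11 cKO (limma), beside 0.124%, with 7 and 4 at an unadjusted p below 0.05, beside 7.40% and 6.85% of all probes.

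The relatives of *Slc4a7* held the first of the genes that passed. *Slc4a11*, a solute carrier of the same family, lay at -0.95 and -1.08 in dcKO and fell there, by limma with an adjusted p of 0.0403 (-1.01 ± 0.09, SD, n = 2). The same gene rose in Sox4 cKO, at 1.16 and 1.82 (1.49, limma adjusted p = 0.0420), and in Sox11 cKO it lay at 0.31 and 0.24. The other 12 genes of this list did not pass in dcKO, and the largest of them was *Car12*, a membrane carbonic anhydrase, at 1.43 and 0.49 (0.96, limma adjusted p = 0.109). The Nodal-pathway genes listed with *Tmeff1* held the other gene that passed, *Acvr2b*, an activin receptor, at -1.14 and -0.73 (-0.93 ± 0.29, SD, n = 2, limma adjusted p = 0.0454). The remaining 5, among them the co-receptor gene *Tdgf1* and *Nodal* itself, did not pass. Of the 6 genes 4 were higher on both dcKO arrays, beside 27.3% of all probes, with log2 fold changes of at most 0.21.

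None of the 16 G protein beta and gamma subunit genes listed with *Gng2* passed. *Gng13* lay at -1.32 and -0.98 (-1.15, limma adjusted p = 0.126) but was not well above background in dcKO, and *Gng10* at -0.51 and -0.45 (-0.48, limma adjusted p = 0.334). None of the 9 genes listed with *Klhl22* passed, which include the ligase subunits and the substrates reported for it. The related adaptor *Klhl21* lay at -1.34 and -0.57 (-0.95, limma adjusted p = 0.0899), and the ligase scaffold *Cul3* at -0.34 and -0.58 (-0.46, limma adjusted p = 0.261). Of the 11 CoREST genes listed with *Rcor2*, all well above background on the dcKO arrays, 8 were lower on both dcKO arrays and none passed. Among probes well above background on every array 35.5% were lower on both. The demethylase gene *Kdm1a* lay at -0.87 and -0.42 (-0.64, limma adjusted p = 0.235) and *Zmym2* at -0.58 and -0.33 (-0.45, limma adjusted p = 0.202).

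The last lists were smaller. Of the 5 lysine-degradation genes set beside *Sccpdh* none passed, with *Aldh7a1* at -0.55 and -0.51 (limma adjusted p = 0.602) and *Gcdh* at -0.14 and 0.03 (limma adjusted p = 0.943). Of the 4 listed with *Tmcc2* none passed, with *Tmcc3* at -0.85 and -0.44 (limma adjusted p = 0.189) and *Tmcc1* at -0.78 and -0.16 (limma adjusted p = 0.575). The partner genes of NICOL, *Nell1*, *Nell2* and *Ros1*, were not well above background on the dcKO arrays and did not pass, with *Nell2* at -0.30 and -0.10 and *Nell1* at 0.17 and 0.08.

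The nearest measured neighbour on each side of each target was tested in the same way, 18 genes in all. One of the 18 was called, beside 0.756% of all probes, and by adjusted p alone 2 passed, beside 2.06%. *Nat8l*, next to *Gm1673* and known for making N-acetylaspartate, lay at 2.79 and 1.81 in dcKO and rose (2.30 ± 0.69, SD, n = 2, limma adjusted p = 0.00538), while *Gm1673* itself lay at -0.62 and -1.76. In Sox11 cKO *Nat8l* lay at -1.25 and -1.44 (-1.34, limma adjusted p = 0.127) and in Sox4 cKO at -0.23 and 0.12. The call for *Nat8l* was lost with a background offset of 50, with the scanner's processed signals and without replicate 1 of dcKO. *Msantd3*, next to *Tmeff1*, lay at -0.82 and -1.21 and fell (-1.02 ± 0.27, SD, n = 2, limma adjusted p = 0.0482). The neighbours of *Gng2* and *Klhl22*, the targets with the lowest ratios, did not pass. Of these *Med15*, next to *Klhl22*, lay at -0.57 and -0.41 (limma adjusted p = 0.231), *Scarf2* was not well above background in dcKO, and *Saysd1* was well above it in no channel of the dcKO arrays.

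**Figure D4:**
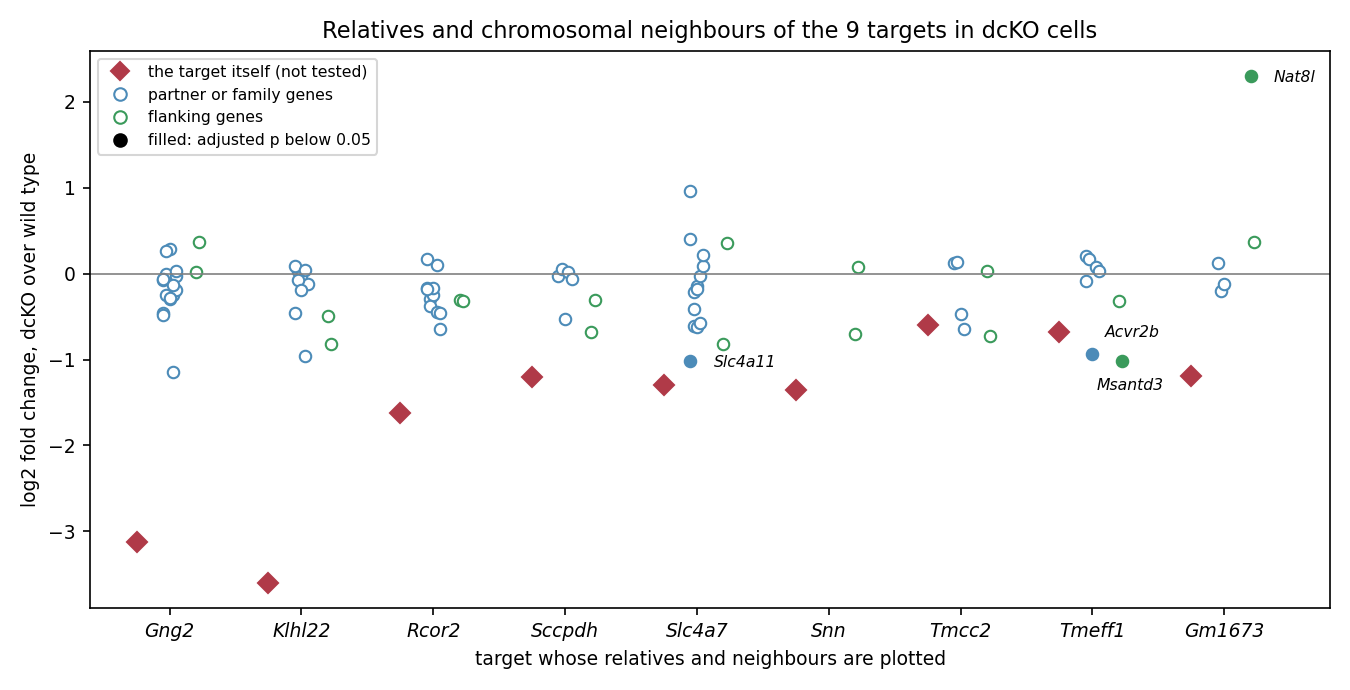
Log2 fold change of dcKO over wild type (y axis) for each target (diamonds, not tested), for its partner or family genes (blue circles) and for its flanking genes (green circles), grouped by target (x axis), each value the mean of 2 arrays. Filled circles passed an adjusted p of 0.05, which were *Slc4a11*, *Acvr2b*, *Msantd3* and *Nat8l*, and only *Nat8l* of these lay above 0.

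The genes whose 6 log2 ratios were most like the mean of the 9 targets, among 11205 genes well above background in at least 1 channel of every array, were *Itga7*, *Ywhah* and *Tmem132a*, with Pearson correlations of 0.9996, 0.997 and 0.994 over 6 arrays that share their dye pattern. *Itga7*, a laminin-binding integrin subunit, lay at 1.499 and 0.333 in Sox4 cKO, at 0.88 and 0.88 in Sox11 cKO and at -2.27 and -2.18 in dcKO. *Ywhah*, a 14-3-3 protein, had the same profile on a small scale, -0.26 and -0.24 in dcKO. Of the 9 targets, *Gng2* lay closest to the mean of the other 8 (0.931) and *Tmcc2* farthest (0.311). These correlations describe 6 points and carry no test.

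The labelled cell type was borne out by its markers. All 5 keratinocyte markers were well above background in every channel, and none was called in dcKO, where the summed log2 level ran from 18.26 to 18.29 against 17.66 to 18.52 in wild type. That sum follows the brightest markers. By gene, 3 of the 5 were lower on both dcKO arrays, beside 28.2% of all probes, and 0 were higher on both. Their dcKO log2 fold changes ran from -0.81 to 0.39, with a median of -0.48. At an unadjusted p below 0.05 there were 3, beside 13.0% of all probes. Of the 5 fibroblast markers, *Col1a1*, *Col3a1* and *Thy1* were not well above background in any of the 12 channels. *Col1a2* was well above background in 11 of the 12 and lay at 0.40 and 0.47 in dcKO (limma adjusted p = 0.469), and *Pdgfra* was well above background in 1 knockout channel. The summed log2 level of the 5 was 7.495 to 7.719 in dcKO and 7.40 to 7.57 in wild type. Of the 4 Merkel cell markers *Krt20* rose in dcKO (1.21, limma adjusted p = 0.0337) while *Atoh1* was not well above background in any channel. *Isl1* lay at 0.01 in dcKO (limma adjusted p = 0.992). The summed log2 level of the Merkel markers was 7.35 to 7.66 in dcKO against 6.65 to 6.98 in wild type. This sum, too, follows the brightest marker. Of the Schwann and neural markers *Ncam1* rose (1.36, limma adjusted p = 0.0186), *Tubb3* fell (-1.01, limma adjusted p = 0.0393) and *Sox10* was not well above background in any channel. None of the 4 melanocyte and 3 immune markers passed in dcKO, and their summed log2 levels were 7.96 to 8.45 and 9.43 to 9.54 there against 7.56 to 10.1 and 9.06 to 9.36 in wild type. The part of these shifts in the values of the 9 targets was not tested.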

How the data were processed

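RNA of knockout and wild-type keratinocytes was hybridised together on 6 Agilent 2-colour arrays of mm9 design, 2 per genotype with the dyes swapped. The deposited scanner files hold linear spot intensity values, which the authors extracted from the scans (Agilent Feature Extraction 11.0.1.1) and of which the median signals and median backgrounds are uncorrected and the processed intensity values are background-subtracted and dye-normalised. A table of log2 ratios that the authors deposited with them was, per the methods, normexp-corrected and loess-normalised, with the dye effect removed by ComBat. It correlated with the ratios computed here at 0.891 to 0.952 when turned as knockout over wild type. Array medians of that table were between -0.00664 and 0.00452, and it was used only as an alternative.

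Background was corrected with limma 3.58.1 (R 4.3.3) by normexp with an offset of 16, as in the study, and arrays were loess-normalised. Control spots and spots marked as outliers were left out and the spots of a probe averaged, which gave 55681 probes. Channel levels were scaled between arrays by Aquantile. A limma model over all 6 arrays held the 3 genotypes and a dye term, with 2 residual degrees of freedom and 5.37 from the prior. p-values were adjusted by Benjamini-Hochberg over all probes. SD is over 2 arrays, and the number of arrays limits the precision. Bounds ("at least") set the mean of the brighter channel against the higher of the lowest signal well above background and the probe's own signal. Probes were named through RefSeq accessions (GRCm38.p6), 28331 of 29786 with an accession. Intervals are 95% limits from the moderated standard errors.

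The dye term is also a block on the replicate number, since both followed each other in every genotype. Deviations of arrays of the same number from their genotype means correlated at 0.316, 0.244 and 0.125 over the 3 pairs of genotypes, so the numbers pair the arrays, by dye or by culture. All arrays were on 1 slide and 1 scan, so no batch was tested. On simulated data for dcKO over 55681 probes, 99% of changes of log2 2 and 100% of changes of log2 3 were recovered, with 7 false calls. The single knockouts were not simulated. In Sox11 cKO the dimmer probe of the targeted *Sox11*, at -2.78, did not pass (limma adjusted p = 0.0944), while the brighter, at -2.98, did (limma adjusted p = 0.0414). The counts of 0 in the single knockouts thus do not exclude changes of that size.

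The 9 genes, the partner lists and the markers were chosen with earlier results of these data known. A result on 1 of the listed marker genes is not reported here. Partner genes were named where the adjusted p in dcKO was below 0.05, otherwise as the 2 with the largest change of a list; *Tdgf1*, *Nodal*, *Med15*, *Scarf2* and *Saysd1* were named as examples after their values were seen. Neighbours were named by adjusted p, and the 3 most similar genes by Pearson correlation. Alternatives were another offset, the processed signals, the authors' table, median centring in place of loess, no replicate block, dim probes left out, the mean of all probes of a gene and each array left out in turn.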

Additional observations from a re-analysis of the deposited data

Results flagged for a closer look

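The wild-type level of *Sccpdh* on replicate 1 of Sox4 cKO, 9.08, stood apart from the other 5 wild-type channels, the nearest of which was 10.05; the gap was 0.639 of the whole range, and chance gives such a gap in about 1 of 20 groups.

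Every array of a genotype lay on the opposite side of 0 from every array of another for several genes. *Gng2* was 4.08 higher on the log2 scale in Sox4 cKO than in dcKO and 4.90 higher in Sox11 cKO than in dcKO, and *Rcor2* was 2.05 higher in Sox4 cKO than in dcKO; these differences were not tested, because the dcKO values chose the genes. The difference of *Rcor2* between Sox4 cKO and Sox11 cKO, 0.72, did not pass (limma adjusted p = 0.860). *Slc4a11* was 2.51 higher in Sox4 cKO and 1.29 higher in Sox11 cKO than in dcKO, *Acvr2b* was 1.27 higher in Sox4 cKO than in dcKO, and the difference of *Nat8l* in Sox11 cKO minus dcKO was -3.64; these differences were not tested.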

How the results depend on the processing

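The count of the 9 targets lower on both dcKO arrays was 9 under every alternative that kept all 9 genes and both dcKO arrays. Their median dcKO log2 fold change, -1.29, was -1.19 with an offset of 50, -1.43 with the processed signals, -1.79 with median centring and -1.20 with the mean over all probes of a gene. The counts of targets called in each single knockout and between them were 0 in every setting that kept both arrays of the genotypes compared. With either Sox11 cKO array left out, the count of 0 in Sox11 cKO did not hold. The partner count was 0 except with median centring (1, *Slc4a11* at -1.55). The flanking count of 1 was 0 with an offset of 50, 0 with the processed signals, 2 with median centring (*Nat8l* and *Msantd3*) and 0 to 1 when an array was left out, being 0 without replicate 1 of dcKO. Without the replicate block (no dye term) the counts of targets called in Sox4 cKO and Sox11 cKO were 0, the flanking count was 1 and the median was -1.29, so these counts and the median did not change.

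The calls over all probes moved more. In dcKO they were 421, against 78 with an offset of 50, 720 with median centring, 127 without replicate 1 of dcKO and 124 without replicate 2. With the processed signals limma called 0, with 7473 probes at an unadjusted p below 0.05. The share of calls that were lower was 58.7%, and 83.2% with median centring. The cause was not tested.

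Among uncalled values, *Gm1673* in Sox4 cKO turned to 0.061 with median centring, and *Slc4a7* in Sox4 cKO minus Sox11 cKO turned to 0.026 with the mean over its probes. When an array was left out, the values in Sox4 cKO ran from -0.48 to 0.56 for *Klhl22*, -0.52 to 0.0052 for *Slc4a7* and -0.80 to 0.78 for *Gm1673*. In Sox11 cKO they ran from -0.57 to 1.13 for *Klhl22*, -0.99 to 0.40 for *Rcor2*, -0.33 to 0.00082 for *Slc4a7*, -0.65 to 0.32 for *Snn*, -1.01 to 0.12 for *Tmeff1* and -1.69 to 0.94 for *Gm1673*. In Sox4 cKO minus Sox11 cKO they ran from -1.77 to 0.13 for *Gng2*, -1.09 to 0.61 for *Klhl22*, -0.36 to 0.17 for *Slc4a7*, -0.97 to 0.052 for *Snn*, -0.40 to 0.73 for *Tmeff1* and -0.95 to 1.68 for *Gm1673*. The mean spot signals, planned as an alternative, could not be run because the scanner output holds median and no mean spot signals.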
